A study of Mus musculus with 26 samples.

Results

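Pigr, Ighm and Ms4a1, 3 genes of secretory antibody transport and of B cells, were followed across 5 exocrine glands in both sexes of BALB/c mice. They were found by gene symbol, or by the current symbol of the Entrez identifier, in the probe annotation of the array. Each had 1 probe, which gave 3 of the 8841 genes named by a probe and 3 of the 10500 probes on the array. All 3 were among the 8211 probes kept after a filter on low values. The Pigr probe lay above the threshold of that filter on all 26 arrays and the Ighm probe on all but 1, whereas the Ms4a1 probe lay below it on every array of 4 of the 10 groups of gland and sex. The 26 arrays covered submandibular, sublingual, parotid, lacrimal and meibomian glands, male and female. Each array measured RNA from 1 pool of 10 glands taken from 5 animals. There were 3 pools per sex (A, B and C) for submandibular, lacrimal and meibomian glands and 2 pools per sex (A and B) for sublingual and parotid glands. All mice were BALB/c and no treatment is named in the labels. Age is not given in the sources used here. A pool hides the differences between its 5 animals, so errors here describe the spread between pools.

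Saliva and tears carry antibodies that plasma cells in the gland stroma release and the epithelium exports. Pigr encodes the polymeric immunoglobulin receptor, which binds dimeric IgA and pentameric IgM at the basolateral surface of epithelial cells, crosses the cell with them and is cleaved at the apical surface as secretory component. Jchain encodes the joining chain that links these immunoglobulins into polymers and is needed for receptor binding. Ccl28 encodes a chemokine of mucosal and glandular epithelium that attracts IgA plasma cells. Ighm encodes the constant region of the mu heavy chain, used by IgM on B cells and in IgM secreted by plasma cells. Ms4a1 encodes CD20, a surface protein of B cells that is absent from plasma cells.

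Values are the deposited array intensities, already scaled so that array medians ran from 0.928 to 0.955, and are given without a unit as scaled intensity. Probe brightness differs between probes, so each probe was compared with itself only. On all arrays the 30th percentile of intensity, used as the filter threshold, lay between 0.281 and 0.561. The arrays fell into 2 sets along the first principal component of their deviations from group means, which carried 39.1% of that variance. Set 1 held 10 arrays, 1 pool of every gland and sex, and set 2 the other 16. What separates the sets is not given in the sources used here. Markers of the labelled glands were higher in their own gland for 4 of 4 submandibular, 1 of 1 sublingual, 2 of 3 parotid, 4 of 5 lacrimal and 6 of 6 meibomian genes measured. Submandibular markers were also higher in sublingual (3 of 4) and parotid glands (2 of 4). Parotid markers were also higher in submandibular (3 of 3), sublingual (2 of 3) and lacrimal glands (1 of 3, with 1 lower). Skeletal muscle markers were higher in meibomian and parotid glands (10 of 10 in both) and lower in sublingual glands (10 of 10). In RNA from whole glands, fewer cells of a type and less RNA per cell cannot be told apart.

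The bases before the transcription start of Pigr, Jchain and Ccl28 are shown because the glands with the most Pigr signal also had the most Jchain and Ccl28 signal. They come from RefSeq (GRCm38.p6), 250 bases each, 5′ to 3′ on the strand of the gene. They lie at chr1:130826434-130826683 (plus strand), chr5:88527898-88528147 (minus strand) and chr13:119623569-119623818 (plus strand). Of the 3 members, Pigr was the only one matched in the promoter table.
Pigr: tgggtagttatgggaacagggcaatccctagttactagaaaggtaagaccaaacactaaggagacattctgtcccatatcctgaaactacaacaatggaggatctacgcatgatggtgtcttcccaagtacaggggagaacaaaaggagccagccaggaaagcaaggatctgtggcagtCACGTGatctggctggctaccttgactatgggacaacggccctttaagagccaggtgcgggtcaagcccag
Jchain: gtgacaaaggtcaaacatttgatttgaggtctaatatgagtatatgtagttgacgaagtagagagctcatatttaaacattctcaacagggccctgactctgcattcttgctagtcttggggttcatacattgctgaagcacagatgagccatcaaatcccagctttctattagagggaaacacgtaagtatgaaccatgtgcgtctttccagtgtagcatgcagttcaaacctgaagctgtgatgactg
Ccl28: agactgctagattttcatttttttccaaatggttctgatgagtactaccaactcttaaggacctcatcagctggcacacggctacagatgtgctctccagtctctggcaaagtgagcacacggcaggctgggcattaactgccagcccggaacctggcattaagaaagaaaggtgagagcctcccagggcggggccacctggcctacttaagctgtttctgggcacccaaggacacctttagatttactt
Capitals mark the letters CACGTG, an E-box, which starts 71 bases before the Pigr start. In the human PIGR promoter an E-box bound by USF factors is known. This motif, which reads the same on both strands, was absent from the Jchain and Ccl28 windows and was present in 6.02% of all 32851 windows of this length. The octamer ATGCAAAT, a motif of immunoglobulin gene promoters, was found on neither strand of the 3 windows and in 1.6% of all windows. The mouse Pigr gene spans chr1:130826684-130852249, the mu constant region chr12:113418826-113422730 and Ms4a1 chr19:11249679-11266149 in the same build.

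By geometric mean, Pigr signal was highest in sublingual and lacrimal glands, intermediate in parotid and submandibular glands and far lower in meibomian glands. In sublingual glands the Pigr probe read 74.4 and 29.9 in male pools A and B and 70.2 and 21.8 in female pools A and B. In lacrimal glands it read 11.3, 29.4 and 33.4 in male pools A, B and C, and 24.8, 98.5 and 63.2 in the female pools. The highest reading of the series, 98.5, was thus a female lacrimal pool, but the male lacrimal pools overlapped with every salivary gland. That pool, female B, also stood apart in gland markers, since its summed intensity of 2 submandibular markers was 93.5, against 2.97 to 16.0 in the other 5 lacrimal pools. Its sum of 3 parotid markers was 846, against 353 to 767 in the others. Car6, 1 of these 3, averaged 464 in lacrimal and 306 in parotid glands, so that sum does not tell parotid from lacrimal signal. Parotid pools read 44.8 and 11.5 in males and 25.2 and 14.1 in females. Submandibular pools read 7.38, 22.4 and 11.8 in males and 8.45, 17.2 and 21.7 in females. These overlapped with the parotid readings. Meibomian pools read 1.21, 0.608 and 0.916 in males and 1.48, 0.826 and 1.10 in females, and all 6 lay below every pool of the other glands.

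Geometric means over both sexes were 42.9 in sublingual (n = 4), 34.6 in lacrimal (n = 6), 20.7 in parotid (n = 4), 13.5 in submandibular (n = 6) and 0.984 in meibomian glands (n = 6). The standard deviation of log2 intensity within these glands was 0.89, 1.09, 0.88, 0.69 and 0.45, in that order. Each gland was set against the mean of the other 4 on the log2 scale with limma across all probes kept. A probe was called at a Benjamini-Hochberg adjusted p under 0.05 and a log2 difference of at least 1. Pigr was higher in sublingual glands than in the others by 2.12 ± 0.42 (log2 ± SE, 4.34-fold, limma adjusted p = 0.000807). It was higher in lacrimal glands by 1.73 ± 0.36 (3.32-fold, limma adjusted p = 0.000497), and by 1.51 without female lacrimal pool B (limma adjusted p = 0.0032). In meibomian glands it was 25.8-fold lower (log2 difference -4.69 ± 0.36, limma adjusted p = 5e-10). These 3 calls held with the pool letter as a block. The summed intensity of 8 epithelial markers ran from 97.7 to 126 in meibomian glands, against 91.5 to 124 in parotid, 77.8 to 176 in lacrimal, 139 to 223 in sublingual and 159 to 238 in submandibular glands, and the last 2 ranges lay above the meibomian one. That of 9 skeletal muscle markers ran from 183 to 354 in meibomian glands, against 53.9 to 265 in parotid, 3.23 to 5.28 in lacrimal, 2.58 to 4.98 in sublingual and 3.25 to 22.8 in submandibular glands. The part of tissue mixture in the Pigr differences was not tested. Parotid (0.80, limma adjusted p = 0.143; called at 1.29 without male parotid pool B) and submandibular glands (0.04, limma adjusted p = 0.952) were not called.

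**Figure D1:**
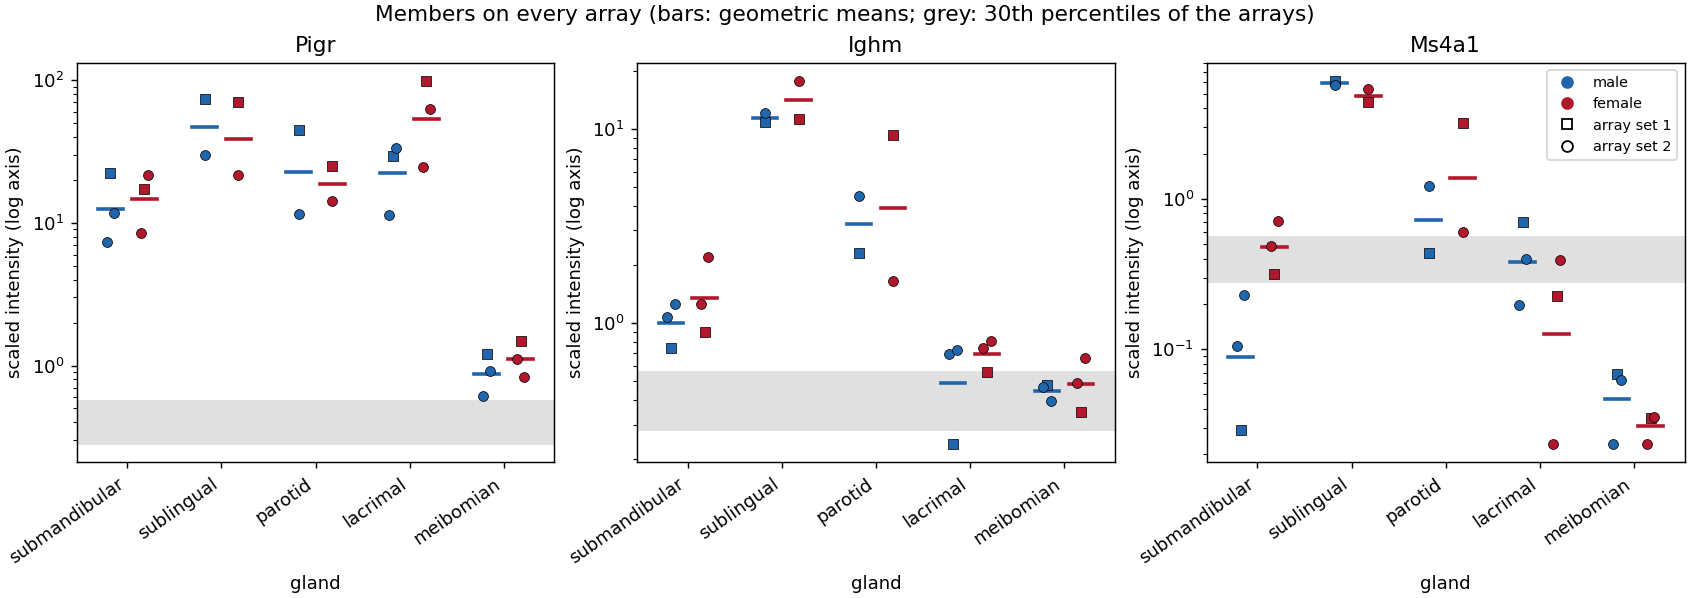
Scaled intensity (log axis) of the Pigr, Ighm and Ms4a1 probes on each of the 26 arrays, by gland, with male pools left of female pools. Squares and circles are the 2 array sets, bars are geometric means and the grey band spans the arrays' 30th percentiles. All 6 meibomian Pigr readings lie under all others, and all 4 sublingual Ighm and Ms4a1 readings lie above all others.

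Ighm was highest in sublingual glands, next in parotid glands, and low in lacrimal and meibomian glands. Sublingual pools read 10.9 and 12.1 in males and 11.2 and 17.6 in females. Parotid pools read 2.29 and 4.53 in males and 9.37 and 1.66 in females. All 4 sublingual readings lay above the highest parotid reading, which came from female pool A. Submandibular pools read 1.07, 0.743 and 1.26 in males and 1.25, 0.896 and 2.19 in females. Lacrimal pools read 0.694, 0.238 and 0.730 in males and 0.748, 0.560 and 0.807 in females. Meibomian pools read 0.480, 0.469 and 0.395 in males and 0.350, 0.661 and 0.493 in females. The lacrimal and meibomian ranges overlapped, and male lacrimal pool B was below the 30th percentile of its array.

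Geometric means of Ighm over both sexes were 12.7 in sublingual, 3.56 in parotid, 1.16 in submandibular, 0.586 in lacrimal and 0.465 in meibomian glands. Against the mean of the other glands, Ighm was 12.3-fold higher in sublingual glands (log2 difference 3.62 ± 0.34, limma adjusted p = 1.51e-07). It was lower in lacrimal glands by a log2 difference of -1.92 ± 0.29 (3.79-fold, limma adjusted p = 1.9e-05) and in meibomian glands by -2.34 ± 0.29 (5.06-fold, limma adjusted p = 6.82e-07). Submandibular glands were not called (-0.69, limma adjusted p = 0.0843). Parotid Ighm was 2.51-fold higher (1.33 ± 0.34, limma adjusted p = 0.00447). With the pool letter as a block its adjusted p was 0.0705, and without female parotid pool A the difference was 0.71 with an adjusted p of 0.120. Lacrimal glands therefore combined a high Pigr signal with a low Ighm signal, both relative to the same probe in the other glands. The IgA heavy chain gene, Igha, was not found by symbol on the array, so the IgA carried by Pigr was not followed. A low Ighm signal is thus no measure of all antibody in a gland.

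Ms4a1 was highest in sublingual glands and next in parotid glands, and most readings of the other glands lay below the filter threshold. Sublingual pools read 6.07 and 5.72 in males and 4.39 and 5.40 in females. Parotid pools read 0.434 and 1.21 in males and 3.20 and 0.598 in females. Every sublingual reading exceeded every parotid reading. Submandibular pools read 0.105, 0.0291 and 0.229 in males and 0.482, 0.318 and 0.709 in females. Lacrimal pools read 0.197, 0.698 and 0.401 in males and -0.0614, 0.225 and 0.392 in females. Of these 12 readings 9 lay below the 30th percentile of their array. All 6 meibomian readings were below it as well, the highest being 0.0686.

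A group wholly below that threshold gave only a bound on the fold. Ms4a1 in sublingual glands was at least 11.6-fold above the mean of the other glands (log2 difference 4.72 ± 0.58, limma adjusted p = 4.13e-06). In meibomian glands it was at least 2.41-fold lower (-4.22 ± 0.50, limma adjusted p = 2.78e-07). In parotid glands it was at least 1.43-fold higher (1.69 ± 0.58, limma adjusted p = 0.0269). The parotid call had an adjusted p of 0.140 with the pool letter as a block, of 0.244 without female parotid pool A, where the difference was 1.09, and of 0.153 without male parotid pool B, where it was 1.32. Submandibular (-1.16, limma adjusted p = 0.0868) and lacrimal glands (-1.04, limma adjusted p = 0.0902) were not called.

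By gland, 3 of 3 members were called in sublingual glands, against 11.1% of the 8210 probes tested in either direction. In meibomian glands 3 of 3 were called, against a background of 37.9%. In parotid glands 2 of 3 were called (background 17.1%) and in lacrimal glands 2 of 3 (background 20.2%). In submandibular glands 0 of 3 were called (background 12.3%). There Ighm and Ms4a1 had unadjusted limma p-values of 0.0289 and 0.0301. The members, and the gene lists used below, were chosen with earlier results of these data known. Counts set against the background are therefore descriptions only.

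**Figure D2:**
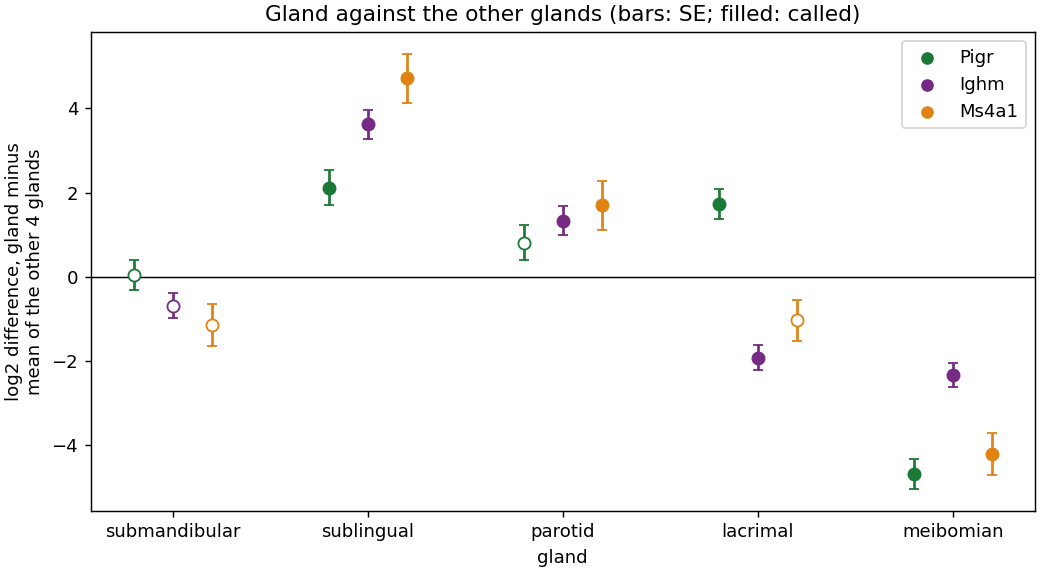
Log2 difference of each gland from the mean of the other 4 glands for the 3 members, with standard errors (limma, 26 arrays). Filled points were called. Pigr is above 0 in lacrimal glands while Ighm is below 0 there, and all 3 members are above 0 in sublingual and below 0 in meibomian glands.

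The 10 pairs of glands show which levels were separated and which were not. The share of all probes called was 10.4% for submandibular against sublingual, 16.8% for submandibular against parotid, 19.4% for submandibular against lacrimal and 36.6% for submandibular against meibomian glands. It was 13.7% for sublingual against parotid, 23.1% for sublingual against lacrimal and 34.8% for sublingual against meibomian glands. It was 26.1% for parotid against lacrimal, 40.1% for parotid against meibomian and 40.8% for lacrimal against meibomian glands. Each comparison with meibomian glands thus called at least 34.8% of all probes.

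Pigr differed in 6 of 10 pairs. Sublingual and lacrimal glands were not separated (sublingual minus lacrimal 0.31 ± 0.50, limma adjusted p = 0.651), nor sublingual and parotid (1.05 ± 0.54, limma adjusted p = 0.196). Parotid and lacrimal (-0.74) and submandibular and parotid glands (-0.61) were not called either. Submandibular Pigr was below sublingual (-1.67 ± 0.50, limma adjusted p = 0.0249) and below lacrimal Pigr (-1.35 ± 0.44, limma adjusted p = 0.0210). With the pool letter as a block these had adjusted p of 0.0725 and 0.0516, and without female lacrimal pool B the lacrimal one was -1.14 (limma adjusted p = 0.0603). All 4 other glands exceeded meibomian glands, from 13.8-fold in submandibular to 43.6-fold in sublingual glands.

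Ighm differed in 8 of 10 pairs. Sublingual exceeded parotid glands 3.57-fold (1.83 ± 0.44, limma adjusted p = 0.00512; 0.0956 with the block). Parotid exceeded lacrimal glands 6.07-fold (2.60 ± 0.41) and meibomian glands 7.65-fold. Lacrimal and meibomian glands were not separated (0.33 ± 0.36, limma adjusted p = 0.433). Submandibular minus lacrimal fell just short of the size needed (0.99, limma adjusted p = 0.0381). Submandibular minus parotid (-1.62, limma adjusted p = 0.00481) and submandibular minus meibomian (1.32, limma adjusted p = 0.00393) had block values of 0.0828 and 0.0544.

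Ms4a1 was called in 9 of 10 pairs, submandibular and lacrimal glands being the exception (-0.09 ± 0.61). In 2 of the 9, submandibular and lacrimal against meibomian glands, most or all readings of both glands lay below the threshold, so no difference is shown there. Sublingual exceeded parotid glands 5.35-fold (2.42 ± 0.75, limma adjusted p = 0.0271; 0.174 with the block). Sublingual exceeded lacrimal glands at least 13.5-fold and meibomian glands at least 18.4-fold, and submandibular Ms4a1 was at least 13.8-fold lower than sublingual Ms4a1. Parotid Ms4a1 exceeded lacrimal Ms4a1 at least 2.52-fold (limma adjusted p = 0.0144; 0.0924 with the block) and submandibular Ms4a1 was at least 2.58-fold lower than parotid (limma adjusted p = 0.0169; 0.120 with the block).

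The pattern over the 10 group means was compared with that of 7259 probes of 1 gene each. The genes most like Pigr were Sec61a1 (Pearson r = 0.988), Fto, Parva, H2-T24 and Ctsz (0.975). Sec61a1, a subunit of the endoplasmic reticulum translocon, averaged 18.4 in sublingual, 17.1 in lacrimal, 14.8 in parotid, 10.1 in submandibular and 2.89 in meibomian glands. The genes most like Ighm were Cd3d (0.99), Pxmp2, Ms4a4b, Ciita and Rac2 (0.977). Cd3d, a chain of the T cell receptor complex, averaged 5.14 in sublingual, 2.07 in parotid and at most 0.85 in the other glands. The genes most like Ms4a1 were Gbp8 (0.99), Sirpa, Ltb, Sppl2a and Grap (0.968). Ltb, the lymphotoxin beta chain made by lymphocytes, averaged 4.55 in sublingual and 1.27 in parotid glands. Ighm and Ms4a1 had r = 0.922 with each other, Pigr and Ms4a1 0.734 and Pigr and Ighm 0.6. These correlations describe 10 means that share the array sets and have no test.

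The partners of Pigr in antibody secretion were taken from a list of 27 genes, of which 20 were on the array and 16 were kept, Pigr and Ighm among them. In sublingual glands 7 of the 16 were higher and 1 lower, with a median log2 difference of 0.53 against -0.08 over all probes. In lacrimal glands 5 were higher and 1 lower, with a median of 0.46 against 0.12 over all probes. In meibomian glands 1 was higher and 9 lower, with a median of -1.64 against -0.09 over all probes. In parotid glands 4 were higher and 0 lower (median 0.12 against -0.13), and in submandibular glands 0 were called (-0.29 against -0.02). Of the genes called higher, Vcam1 in sublingual and Il6 in lacrimal glands passed the filter through that gland alone. The shares of all probes called were 11.1% in sublingual, 20.2% in lacrimal, 37.9% in meibomian, 17.1% in parotid and 12.3% in submandibular glands. With the pool letter as a block, 3 were higher and 1 lower in sublingual glands.

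Ccl28 followed the same order of glands as Pigr at the top and bottom. It averaged 35.1 in sublingual, 18.1 in lacrimal, 8.69 in submandibular, 7.59 in parotid and 0.0998 in meibomian glands. It was at least 8.12-fold higher in sublingual glands than in the others (log2 difference 3.41 ± 0.26, limma adjusted p = 1.67e-08). It was at least 3.55-fold higher in lacrimal glands (2.21 ± 0.23, limma adjusted p = 1.04e-07) and at least 49.0-fold lower in meibomian glands (-7.16 ± 0.23). Every lacrimal pool, from 11.3 to 33.6, and every sublingual pool, from 18.6 to 46.8, lay far above the highest meibomian Ccl28 reading of 0.174. Across the 10 group means Ccl28 had r = 0.967 with Pigr and 0.602 with Ighm.

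Jchain averaged 10.7 in sublingual, 7.59 in lacrimal, 3.41 in parotid, 2.43 in submandibular and 0.555 in meibomian glands. It was higher in sublingual (2.13 ± 0.52, limma adjusted p = 0.00496) and lacrimal glands (1.52 ± 0.45, limma adjusted p = 0.00799) and lower in meibomian glands (-3.20 ± 0.45, limma adjusted p = 2.88e-06). With the pool letter as a block the sublingual and lacrimal calls of Jchain were lost (adjusted p = 0.157 and 0.141). Its lacrimal readings spread widely, with 23.4, 52.8 and 7.16 in male pools A, B and C and 5.43, 0.760 and 5.24 in female pools.

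Survival factors of B and plasma cells and their receptors differed between glands in other ways. Tnfsf13, which encodes APRIL, averaged 9.24 in lacrimal glands and at most 4.28 in the others (lacrimal log2 difference 2.04 ± 0.18, limma adjusted p = 9.12e-09). Tnfrsf13c, the BAFF receptor of B cells, was at least 2.98-fold higher in parotid glands (1.96 ± 0.34, limma adjusted p = 0.000122), and Tnfrsf13b, which encodes TACI, was higher there too (1.12 ± 0.22). Tnfrsf17, the plasma cell receptor BCMA, was higher in meibomian glands, where Pigr was lowest (2.76 ± 0.18, limma adjusted p = 4.61e-11). Prdm1 (3.53 ± 0.24) and Sdc1 (3.95 ± 0.14), which plasma cells express but keratinising epithelium also expresses, were higher in meibomian glands as well. With Tnfrsf17 they were the only 3 higher there of 8 kept plasma cell markers, while 4 were lower. The median log2 difference of the 8 was -0.77, against -0.09 over all probes, of which 37.9% were called. Of 26 genes of epithelial transcytosis, 20 were kept, and 4 were higher and 1 lower in lacrimal glands against 4 higher and 3 lower in meibomian glands, shares near those of all probes (20.2% and 37.9%). Rab17, a small GTPase of transcytosis in epithelial cells, was lower in meibomian (-3.27 ± 0.17) and lacrimal glands (-1.47 ± 0.17) and higher in submandibular glands (2.12 ± 0.17). Of 15 kept genes of signals known to act on Pigr transcription, 0 were called in sublingual glands (background 11.1%), 1 was higher and 1 lower in lacrimal glands (20.2%) and 2 were higher and 2 lower in meibomian glands (37.9%).

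Markers of B cells were taken from a list of 30 genes, of which 22 were on the array and 21 were kept, again including Ighm and Ms4a1. In sublingual glands 11 of the 21 were higher and 0 lower (median log2 difference 1.11 against -0.08 over all probes). In parotid glands 4 were higher and 0 lower, in lacrimal glands 4 were higher and 4 lower, and in submandibular glands 2 were higher and 5 lower. In meibomian glands 0 were higher and 14 lower. Over all probes, 11.1% were called either way in sublingual, 17.1% in parotid, 20.2% in lacrimal, 12.3% in submandibular and 37.9% in meibomian glands. The parotid count of B cell markers was near that share. With the pool letter as a block 7 were higher in sublingual and 2 in parotid glands.

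Cd79b, a signalling chain of the B cell receptor, was at least 7.88-fold higher in sublingual glands (3.19 ± 0.34, limma adjusted p = 1.15e-06) and averaged 3.94 there, against 1.16 in parotid, 0.557 in lacrimal, 0.333 in submandibular and 0.160 in meibomian glands. Cd37, a tetraspanin of B cells, was at least 2.09-fold higher in sublingual glands (1.68 ± 0.25). Cr2, the complement receptor of B cells and follicular dendritic cells, was higher in parotid (1.69 ± 0.21) and sublingual glands (1.51 ± 0.21). Of the 11 genes called in sublingual glands, 3 (the B cell kinases Blk and Btk, and Vpreb3) passed the filter through sublingual glands alone. The filter kept these 3 only for their sublingual readings, so their calls add no support to the count.

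Other B cell markers had other orders of glands. Cr2 averaged 2.37 in parotid and 2.14 in sublingual glands. Cd79a, the partner chain of Cd79b, averaged 21.4 in lacrimal, 18.7 in submandibular, 9.99 in parotid, 6.58 in sublingual and 4.74 in meibomian glands, and had r = -0.242 with Ighm. Cd22, an inhibitory B cell receptor, was higher in submandibular glands (2.60 ± 0.31, limma adjusted p = 1.86e-06), where Ms4a1 lay below the threshold on 4 of 6 arrays. Ebf1 (1.21 ± 0.28) and Cd180 (1.16 ± 0.20) were higher in lacrimal glands. The summed intensity of 18 B cell markers without the members ran from 22.6 to 38.8 in sublingual glands, from 20.3 to 44.2 in parotid, from 25.4 to 71.1 in lacrimal, from 22.9 to 56.9 in submandibular and from 11.5 to 13.4 in meibomian glands. Cd79a was the brightest probe of this sum, with a mean share of 59.1% in lacrimal, 50.3% in submandibular, 38.3% in meibomian, 36.3% in parotid and 25.6% in sublingual glands.

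**Figure D3:**
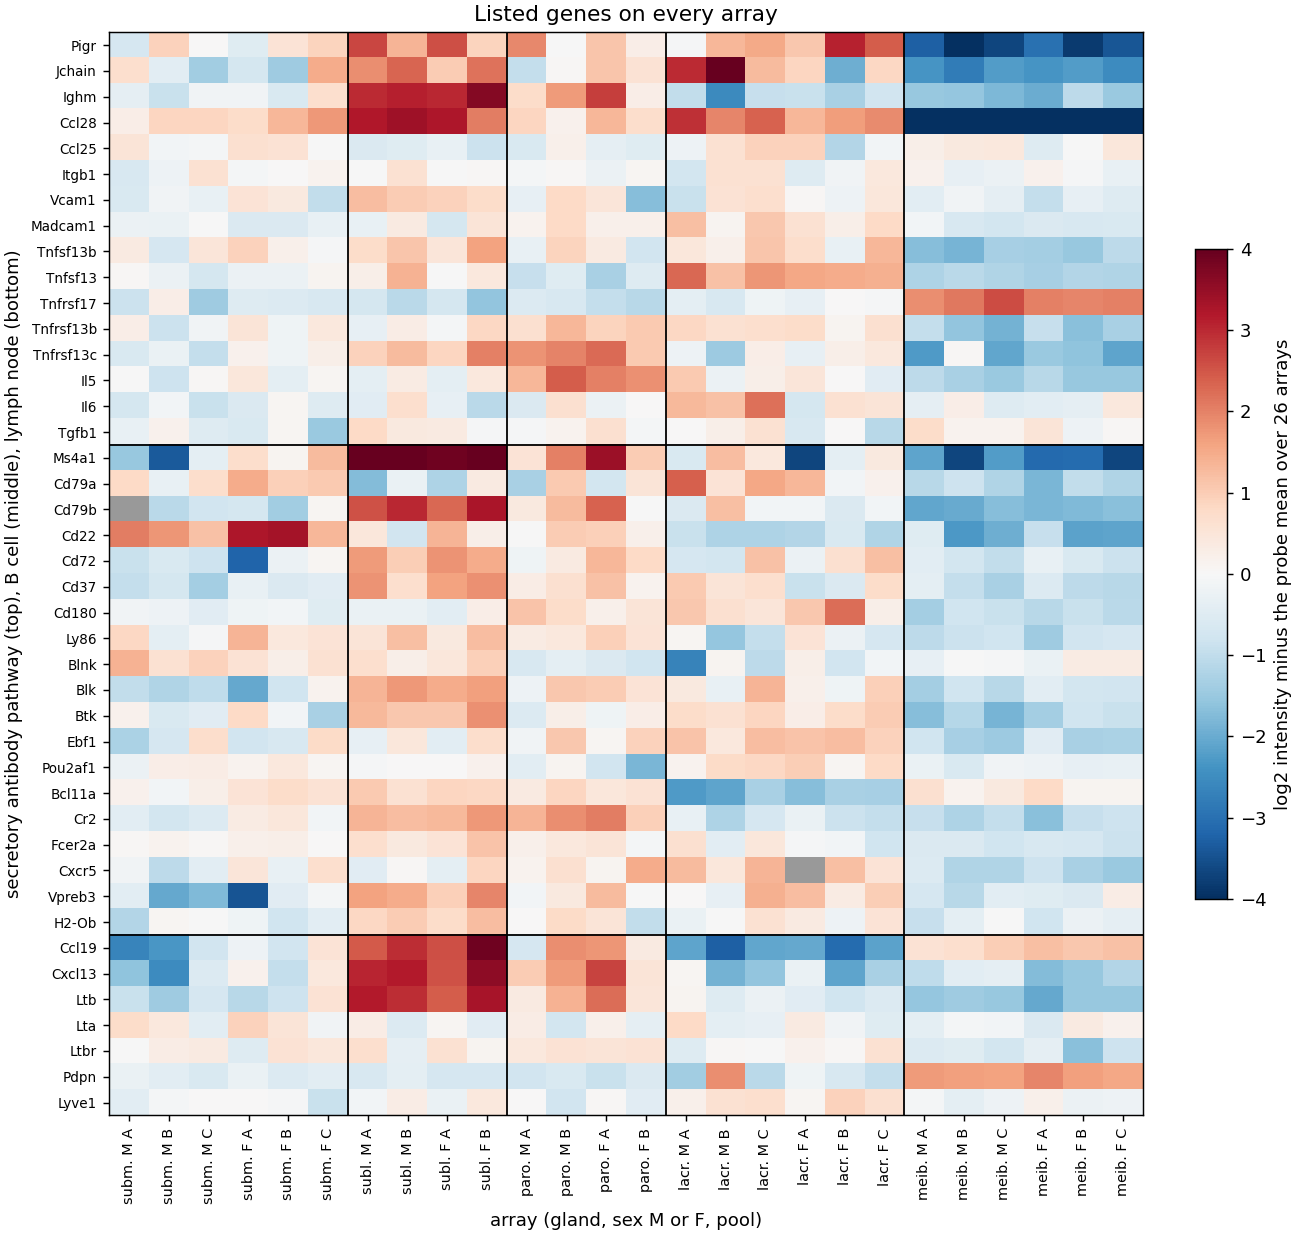
Kept genes of the secretory antibody, B cell and lymph node lists (rows) on the 26 arrays (columns, by gland, males left of females), as log2 intensity minus the mean of the probe over all arrays; grey cells are missing. Pigr, Jchain and Ccl28 are high in most sublingual and lacrimal columns, but Jchain is low in female lacrimal pool B. Ighm, Ms4a1, Cd79b, Cxcl13 and Ltb are high in sublingual columns and in female parotid pool A.

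T cell markers, MHC class II genes and pan-leukocyte genes were mostly higher in sublingual glands as well, and lymph node markers in part. In sublingual glands 9 of 13 T cell markers, 6 of 7 MHC class II genes, 7 of 11 pan-leukocyte genes and 4 of 9 lymph node genes were higher and 0 lower. Their median log2 differences were 1.81, 1.11, 1.29 and 0.25, against -0.08 over all probes. Of 12 macrophage and dendritic cell markers 2 were higher and 0 lower there, with a median of -0.02. Of the 9 T cell genes, 3 passed the filter through sublingual glands alone. With the pool letter as a block, 7 T cell, 5 MHC class II, 7 pan-leukocyte and 4 lymph node genes were higher there. Some T cell markers were highest elsewhere. Cd4 and Cd247 averaged 4.34 and 3.98 in lacrimal glands, against 2.68 and 1.605 in sublingual glands. Lat averaged 7.13 in parotid and 5.865 in sublingual glands, and Cd27 4.32 in meibomian and 2.65 in sublingual glands. In parotid glands 3 T cell and 3 lymph node genes were higher and 0 lower, 0 MHC class II genes were called, and 0 pan-leukocyte genes were higher and 2 lower. Over all probes, 11.1% were called either way in sublingual and 17.1% in parotid glands. The parotid T cell and pan-leukocyte counts were near the parotid share. Cxcl13, the chemokine that draws B cells into follicles, averaged 10.7 in sublingual, 3.55 in parotid and at most 0.704 in the other glands. Ltb and Cr2 were the other lymph node genes called in sublingual glands, beside Cxcl13 and Ccl19. Ccl19, a chemokine of T cell zones, averaged 12.97 in sublingual, 3.21 in meibomian and 2.94 in parotid glands. Other genes of the lymph node list were highest elsewhere. Cxcr5, the receptor of Cxcl13, and Lyve1, a lymphatic vessel marker, averaged 1.25 and 0.717 in lacrimal glands, against 0.654 and 0.527 in sublingual glands. Lta, the lymphotoxin alpha chain, averaged 6.07 in submandibular and 4.31 in sublingual glands, and Pdpn, podoplanin, 6.85 in meibomian and 1.41 in sublingual glands.

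The summed intensity of 9 lymph node markers ran from 29.97 to 54.37 in sublingual glands, from 12.71 to 27.96 in parotid, from 15.37 to 18.04 in meibomian, from 8.89 to 15.97 in submandibular and from 7.92 to 13.93 in lacrimal glands. The summed intensity of 16 T cell markers ran from 28.9 to 43.7 in sublingual glands, from 17.8 to 35.8 in parotid and from 9.99 to 25.7 over the other 3. No sublingual pool overlapped with another gland in the lymph node sum. Of the lymph node list, Ccr7 was below the filter, at 0.212 in sublingual glands. Whether lymph node tissue in the dissected glands has a part in the Ighm and Ms4a1 differences was not tested.

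Female parotid pool A stood apart from the other 3 parotid pools. It read 9.37 for Ighm, 3.20 for Ms4a1, 2.98 for Cd79b, 8.17 for Cxcl13 and 2.75 for Ltb. The other parotid pools read 1.66 to 4.53 for Ighm, 0.434 to 1.21 for Ms4a1, 0.574 to 1.39 for Cd79b, 1.81 to 4.14 for Cxcl13 and 0.750 to 1.54 for Ltb. Its lymph node sum was 27.96, against 12.71 to 20.05 in the others, and its T cell sum was 35.8, against 17.8 to 26.7. Its skeletal muscle sum was 53.9, against 213 to 265 in the other 3. Its Pigr reading of 25.2 lay within the range of the other 3, 11.5 to 44.8. Its sum of 18 B cell markers without the members, 27.2, also lay within the range of the others, 20.3 to 44.2. Cd79a was the brightest probe of that sum. Without this pool 3 B cell markers were higher and 1 lower in parotid glands, and 2 lymph node markers were higher.

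**Figure D4:**
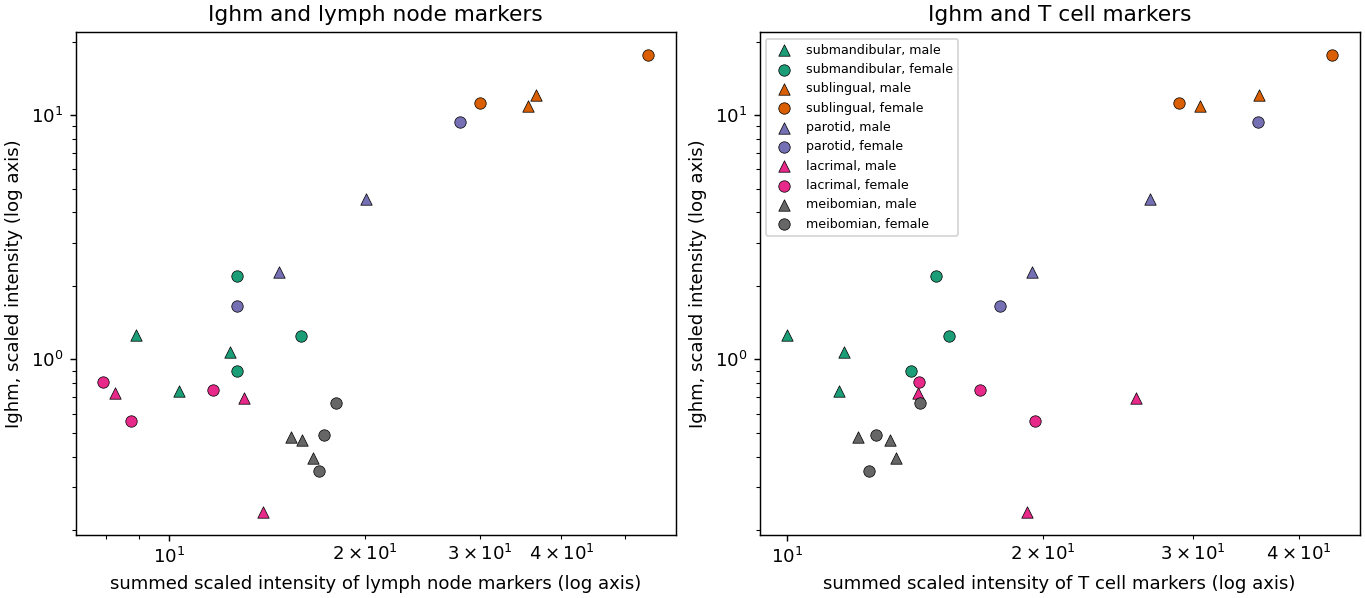
Ighm intensity against the summed intensity of lymph node (left) and T cell markers (right) on each array, both on log axes, coloured by gland, with triangles for males and circles for females. The 4 sublingual pools have the highest Ighm values and lymph node sums of 29.97 or more, and female parotid pool A lies next to them at 27.96.

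Between males and females, none of the 3 members was called in any gland (limma, called at an adjusted p under 0.05). The background of probes called was 5.41% in lacrimal, 2.59% in submandibular, 0.207% in sublingual, 0.0365% in meibomian and 0.0244% in parotid glands, and 1.27% for the mean of the 5 glands. An F test of whether the sex difference differed between glands called 2.62% of probes and 0 of 3 members. Its adjusted p was 0.500 for Ms4a1 and 1 for Pigr and Ighm. At an unadjusted limma p under 0.05 this test passed for 1 member, Ms4a1, and of the 15 single-gland sex differences for 1, Ms4a1 in submandibular glands.

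Pigr read lower in male than in female lacrimal glands in all 3 pool pairs, with log2 differences of -1.13 in pools A, -1.74 in pools B and -0.92 in pools C. The mean difference was -1.27 ± 0.63 (2.41-fold, limma adjusted p = 0.365). Pools of the same letter varied together across all probes. With the letter as a block the same difference had a standard error of 0.26 and an adjusted p of 0.00761, which was called. It was called in 1 of 35 alternative fits, that one, with differences from -1.82 to -0.78 over them, and had an adjusted p of 0.0950 with the array set as a block. Without female lacrimal pool B, the pool with the high submandibular marker sum, it was -0.83 (limma adjusted p = 0.692). It was -1.75 within array set 1, where each sex has 1 array, and -1.03 within set 2. The male and female ranges overlapped, since male pools reached 33.4 and female pool A read 24.8. In the other glands the Pigr sex difference lay between -0.33 and 0.27, and none was called with the block.

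In the same lacrimal glands 1 of the 16 kept genes of the antibody secretion list was called between the sexes, Jchain, which was higher in males (2.89 ± 0.78, limma adjusted p = 0.0314; 0.0655 with the block). Every male Jchain reading (7.16 to 52.8) exceeded every female reading (0.760 to 5.43), the lowest of which came from female pool B. In the plasma cell list, Fkbp11, an endoplasmic reticulum protein of secretory cells, was higher in males (1.43 ± 0.40, limma adjusted p = 0.0418), as was Prdm1 (at least 2.06-fold, 1.65 ± 0.42, limma adjusted p = 0.0227). Xbp1, a transcription factor of secretory and plasma cells, was lower in males (-0.95 ± 0.27, limma adjusted p = 0.0469). Rab17 was lower in males as well (-1.87 ± 0.30, limma adjusted p = 0.000326). Over both sexes Rab17 averaged 8.69 in submandibular and 1.19 in lacrimal glands. All these sex differences include female lacrimal pool B, the pool with the high submandibular marker sum. The part of that pool in them was not tested. Of 8 plasma cell markers, Jchain again among them, 3 were higher and 1 lower in male lacrimal glands, and of 21 B cell markers 0 were called.

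Ms4a1 read lower in males in submandibular glands in all 3 pool pairs, with log2 differences of -2.20, -3.45 and -1.63. All 3 male readings were below the filter threshold, so the fold is at least 1.52 (log2 difference -2.43 ± 0.87, limma adjusted p = 0.209; 0.0614 with the block). Other markers differed between the same pools. Of 10 skeletal muscle genes, 6 were higher in males and 0 lower, with summed intensities of 18.9 to 22.8 in males and 3.25 to 5.91 in females. Of 11 pan-leukocyte genes 0 were called, and sums over 9 probes of that list were 19.0 to 23.4 in males and 27.9 to 46.8 in females. Ptprcap weighed most in these sums, since it averaged 17.99 in submandibular glands, against at most 2.77 for the other pan-leukocyte genes. The part of the muscle and leukocyte markers in the Ms4a1 values was not tested. In lacrimal glands 5 of the 6 Ms4a1 readings were below the threshold, so neither a fold nor a direction between the sexes is read from them (limma adjusted p = 0.439). Ighm had a negative sex difference in every gland, from -0.12 in meibomian to -0.50 in lacrimal glands, with a mean over glands of -0.33 ± 0.25 (limma adjusted p = 0.965). In parotid glands the 2 pool pairs of Ighm ran opposite ways (-2.03 and 1.45), as did those of Ms4a1 (-2.88 and 1.02).

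**Figure D5:**
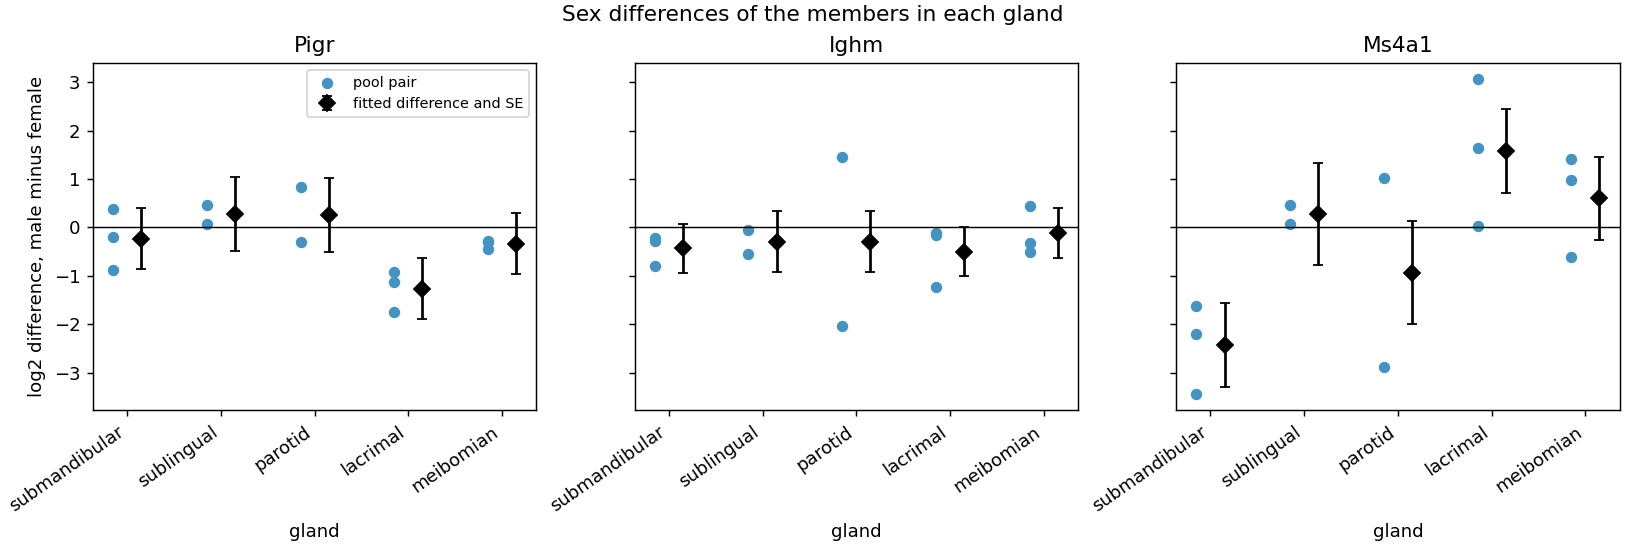
Male minus female log2 difference of the 3 members in each gland. Dots are single pool pairs and diamonds are fitted differences with standard errors. All 3 lacrimal Pigr pairs lie below 0, while the 2 parotid pairs of Ighm and Ms4a1 lie on opposite sides of 0.

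The array sets moved Pigr more evenly than the other members. Pigr was higher on set 1 than on set 2 in 10 of 10 groups, by 0.34 to 1.96 on the log2 scale (median 1.05). Of 7555 probes measured on all arrays, 3.11% were higher on set 1 in every group and 9.21% lower. Ighm was higher on set 1 in 2 of 10 groups and Ms4a1 in 6. Within set 1 the Pigr differences from the other glands were 2.29 in sublingual, 1.76 in lacrimal and -4.90 in meibomian glands, and within set 2 they were 1.75, 1.90 and -4.40. For Ighm, sublingual glands stood 3.67 above the others in set 1 and 3.75 in set 2, and parotid glands 2.10 and 0.73. For Ms4a1, sublingual glands stood 4.58 above the others in set 1 and 4.85 in set 2.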

How the data were processed

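The 26 arrays gave 1 deposited table of probe intensity, scaled by the authors so that array medians are nearly equal, as the values themselves show. Platform, scanner, scaling method and probe sequences are not given in the sources used here; cells of -1 (2241 in all) were taken to mark unmeasured spots and were not used. Other values were raised to a floor of 0.02337 (1st percentile of positive values) and taken to log2. The deposited table reports no depth, so the number of pools limits the precision. Probes were kept where at least 1 group had all its measured arrays at or above their own 30th percentile. Probes were named from the platform's annotation (8983 with 1 symbol, 8975 matched in RefSeq by Entrez identifier).

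The 10 group means were fitted with limma 3.58.1 (R 4.3.3) on all 26 arrays, with 16 residual degrees of freedom, and p-values were adjusted over all probes tested in a comparison. The script was tested on simulated data. Pool letters come from the labels. Deviations of same-letter male and female pools correlated (r 0.441 to 0.816 over the 9 pairs of glands with 3 pools per sex), against -0.695 to 0.491 for other letters, so letters were treated as pairs in an alternative fit: a fixed block for sex comparisons, a random block (consensus correlation 0.563) for glands. Other alternatives were the missing code at the floor, no filter, another floor, quantile normalization, array weights, the array set as a block or set 2 alone, only the arrays compared, and each array left out. A gene below the 30th percentile on every array of a group got a bound in place of a fold. Genes named are the members, the 5 genes of most similar pattern for each, and listed genes that were called, up to 4 per list by size, with any gene of the secretory antibody and B cell lists. Some other listed genes are named for a contrast or as the brightest of a sum. Members and lists were chosen with earlier results of these data known. Promoter sequence was read from RefSeq (GRCm38.p6).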

Additional observations from a re-analysis of the deposited data

Results flagged for a closer look

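The male minus female log2 differences of Pigr stood out because every pool pair ran one way in a gland and the opposite way in another. They were -1.27 in lacrimal glands (3 of 3 pairs lower in males), -0.33 in meibomian glands (3 of 3 lower) and 0.27 in sublingual glands (2 of 2 higher). Ms4a1 stood out for the same reason, with -2.43 in submandibular glands (3 of 3 pairs lower in males), 1.58 in lacrimal glands (3 of 3 higher) and 0.28 in sublingual glands (2 of 2 higher). All 3 female and 2 of 3 male lacrimal Ms4a1 readings, and all 3 male submandibular ones, lay below the threshold, and 1 was below 0 and raised to the floor, so the sizes there and the lacrimal direction are not measured. The difference between any 2 of these glands was not tested. The F test over all 5 glands had a limma adjusted p of 1 for Pigr and 0.500 for Ms4a1, and of 0.113 and 0.129 with the pool letter as a block.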

How the results depend on the processing

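With the pool letter as a replicate block (paired pools), 11 calls of the members changed. Pigr in male against female lacrimal glands gained a call (-1.27). Lost were Pigr submandibular minus sublingual (-1.67) and minus lacrimal (-1.35), Ighm in parotid glands (1.33), submandibular minus parotid (-1.62), submandibular minus meibomian (1.32) and sublingual minus parotid (1.83), and Ms4a1 in parotid glands (1.69), submandibular minus parotid (-2.28), sublingual minus parotid (2.42) and parotid minus lacrimal (2.19). The block changed no other call of the members. With array set 2 alone, calls were lost for Pigr submandibular minus sublingual (-1.18), Ighm in parotid glands (0.73) and submandibular minus parotid (-0.98), and Ms4a1 in parotid glands (1.46), submandibular minus parotid (-1.50), sublingual minus parotid (2.71) and parotid minus lacrimal (2.38), on fewer arrays. With the array set as a block Pigr sublingual minus parotid was gained (1.05). With only the arrays of the pair, Ighm sublingual minus parotid (1.83) and Ms4a1 parotid minus lacrimal (2.19) were lost.

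Quantile normalization lost Pigr submandibular minus lacrimal (-1.11) and Ms4a1 lacrimal minus meibomian (1.19) and gained Ighm submandibular minus lacrimal (1.06) and Ms4a1 in lacrimal glands (-1.89). It moved the median of all probes in lacrimal glands to -0.06, from 0.12 as deposited. The higher floor gained Ms4a1 in submandibular (-1.22) and lacrimal glands (-1.04).

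With each array left out in turn, Pigr ranged from 0.31 to 1.29 in parotid glands (gained without male parotid B), from -2.09 to -1.24 for submandibular minus sublingual and from -1.63 to -1.14 for submandibular minus lacrimal (both lost in 4 cases). Ighm ranged from 0.71 to 1.96 in parotid glands and from -2.24 to -0.99 for submandibular minus parotid (both lost without female parotid A), and from 0.72 to 1.13 for submandibular minus lacrimal (gained in 5 cases). Ms4a1 ranged from -1.50 to -0.75 in submandibular and from -1.45 to -0.43 in lacrimal glands (gained in 3 and 2 cases), from 1.09 to 2.30 in parotid glands, from -2.88 to -1.68 for submandibular minus parotid and from 1.58 to 2.79 for parotid minus lacrimal (all 3 lost without female parotid A or male parotid B), and from 1.82 to 3.02 for sublingual minus parotid (lost in 6 cases).

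Differences that were never called changed sign under some settings. For Pigr these were submandibular glands (-0.01 with array weights, -0.17 to 0.24 with an array left out), sublingual minus lacrimal (-0.12 with set 2 alone, -0.11 to 0.73), and the sex difference in submandibular (-0.65 to 0.15), sublingual (-0.57 to 1.12) and parotid glands (-0.30 with set 2 alone, -0.72 to 1.24). For Ighm they were the sex difference in sublingual (-0.62 to 0.03), parotid (1.45 with set 2 alone, -1.54 to 0.96), lacrimal (-0.78 to 0.03) and meibomian glands (-0.35 to 0.10). For Ms4a1 they were submandibular minus lacrimal (0.62 with quantile normalization, 0.11 with array weights, 0.88 with set 2 alone, -0.70 to 0.31), and the sex difference in parotid glands (1.02 with set 2 alone, -2.14 to 0.28) and over the mean of 5 glands (0.23 with set 2 alone, -0.42 to 0.06). The cause of these changes was not tested.

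Counts of all probes called moved by over 1.5 times in lacrimal glands (1659, 2998 with no filter), for lacrimal minus meibomian (3352, 5062 with no filter), and for sex in lacrimal (444, 93 to 1110 over the alternatives), submandibular (213, 117 to 594), sublingual (17, 0 to 36), parotid (2, 0 to 23), meibomian glands (3, 2 to 5), the mean (104, 47 to 330) and the F test (215, 136 to 578). Readings near the floor limit Ms4a1 outside sublingual and parotid glands, and 2 or 3 pools per group limit all comparisons.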
